A study of Homo sapiens with 4 samples.

Results

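The genes described here are 6 transcription factors that drive the epithelial to mesenchymal transition (SNAI1, SNAI2, TWIST1, TWIST2, ZEB1 and ZEB2), 3 mesenchymal markers (VIM, FN1 and SPARC) and the epithelial splicing factor ESRP1. They were chosen by gene name, with TCF8, ZFHX1B and RBM35A as older names of ZEB1, ZEB2 and ESRP1. These 10 genes, of 19601 genes named on the array, are represented by 15 of its 50238 probes. The data come from HCT116, a human colorectal carcinoma cell line, and were measured with single color (Cy3) Agilent arrays on 1 slide. The vector control clone (vec) and the plakophilin3 (PKP3) knockdown clone (shpkp3-2), which stably carries a plasmid encoding an shRNA, were each measured on 2 arrays. The labels give puromycin at 5 μg/ml as the selection, while the methods name blasticidin for the HCT116 clones. RNA was collected at 2 separate times, each giving 1 vec and 1 shpkp3-2 sample. As each condition is a single clone, the effect of the knockdown and a difference between the clones cannot be told apart. The p-values rest on the spread between arrays of a clone, pooled in part over all probes tested, and not on a spread between clones.

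In the epithelial to mesenchymal transition, cells lose cell to cell adhesion and gain motility. SNAI1, SNAI2, ZEB1 and ZEB2 are zinc finger proteins that repress E-cadherin (CDH1) and other epithelial genes, and TWIST1 and TWIST2 are basic helix-loop-helix proteins. VIM is the intermediate filament of mesenchymal cells, FN1 is a matrix glycoprotein, SPARC is a secreted protein that binds collagen, and ESRP1 maintains the epithelial pattern of splicing. PKP3 is a desmosomal plaque protein, and its loss from HCT116 cells bears on how transformed cells lose adhesion.

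The results turn on VIM, for which both of 2 probes had lower values in shpkp3-2, and on FN1, for which 3 probes differed in detection. The sequences of these probes, as the array files give them, are shown in lower case because no base is singled out.
VIM, GT_44k_23_P161190: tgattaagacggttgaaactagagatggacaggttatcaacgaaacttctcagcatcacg
VIM, GT_44k_23_P161194: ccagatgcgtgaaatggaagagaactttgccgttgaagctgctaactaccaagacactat
FN1, GT_44k_24_P119745: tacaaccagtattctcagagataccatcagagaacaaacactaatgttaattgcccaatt
FN1, GT_44k_24_P85539: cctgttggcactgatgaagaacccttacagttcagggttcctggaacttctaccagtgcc
FN1, GT_44k_24_P334130: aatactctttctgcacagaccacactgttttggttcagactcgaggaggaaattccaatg
Both VIM probes are assigned to NM_003380. The first pair of FN1 probes are assigned to NM_212482 and the third to NM_054034. The GC content was 41.7% and 45% for the VIM probes, and 35%, 51.7% and 43.3% for the FN1 probes in the order shown. The positions of the probes in the genome are listed as unmapped in the files.

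The arrays were alike in overall signal, with 60.5% to 63.5% of spots well above background and a 75th percentile intensity of 374 to 499. Well above background is the flag that the software gives to a spot whose signal exceeds its background by a set multiple of the background spread. PKP3 had intensities of 20850 and 22840 in vec against 3414 and 3078 in shpkp3-2. Its log2 fold change was -2.54 (SE 0.23), with an adjusted p of 0.0188 in limma, so the clones carried the labelled difference. All 5 epithelial markers checked (EPCAM, CDH1, KRT8, KRT18 and KRT19) were well above background on all 4 arrays. Of the colon markers, 2 of 4 were, and CDX1 was on none. Of 11 hematopoietic and endothelial markers, PTPRC, HBB, PECAM1, CDH5 and TEK were well above background on no array, while CD68, a lysosomal protein of macrophages and other cells, was higher in shpkp3-2 (log2 fold change 1.43, limma adjusted p = 0.0459, with a range of 0.0015 to 0.236 over the alternatives). HBA2, a hemoglobin chain, went the other way (log2 fold change -1.08, limma adjusted p = 0.152), and it was called lower with the RNA collection as a block (0.0252). VWF, a clotting protein of endothelial cells, had a log2 fold change of 0.24, not past the threshold.

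None of the 10 genes was called higher or lower in shpkp3-2 by limma at an adjusted p of 0.05. SNAI1, SNAI2, TWIST1, VIM, FN1, SPARC and ESRP1 had a probe well above background on all 4 arrays and were tested, whereas ZEB1, ZEB2 and TWIST2 were well above background on no array. Among the 30512 probes tested, 75 (0.246%) were called higher and 44 (0.144%) lower. At an unadjusted p of 0.05, 3 of the 7 tested genes were lower (VIM, SPARC and SNAI2) and 0 were higher, against 1518 probes lower (4.98%) and 2243 higher (7.35%) in all. With the RNA collection as a block, VIM and SPARC passed the threshold as lower, where 1.11% of all probes were called lower and 1.65% higher. For 4 of the 7 genes (VIM, SPARC, SNAI2 and ESRP1) both shpkp3-2 values lay below both vec values, which held for 18.0% of all probes tested. The median log2 fold change of the 7 genes was -0.33, compared with 0.05 for all probes tested. Levels are given below as processed intensities before scaling, and changes as log2 differences after each array was scaled to its 75th percentile.

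**Figure D1:**
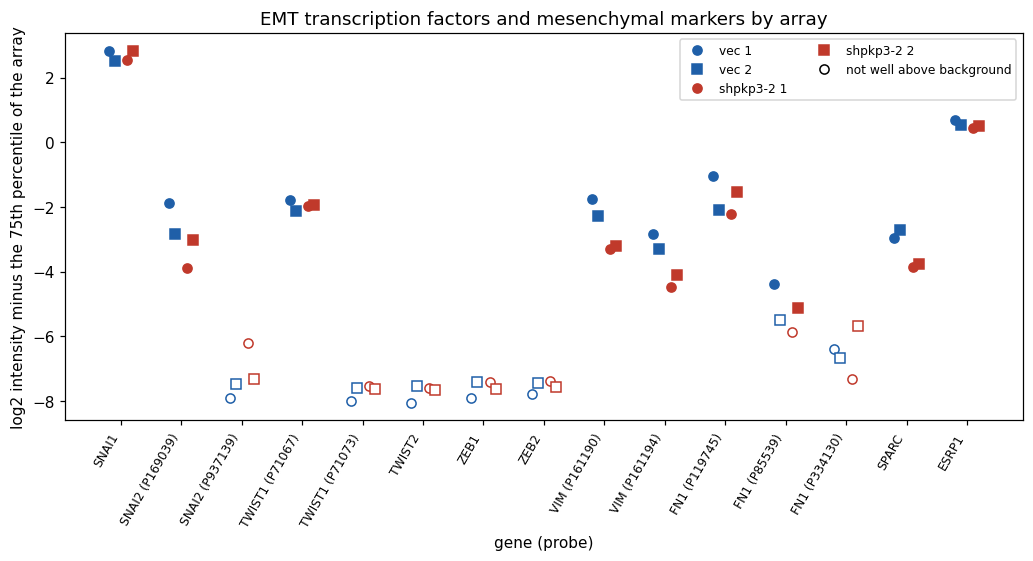
Scaled log2 intensity of each of the 15 probes (vertical axis, log2 intensity minus the 75th percentile of the array) on the 2 vec and 2 shpkp3-2 arrays, with circles for the first and squares for the second RNA collection and open symbols for values not well above background. Both shpkp3-2 values of the 2 VIM probes and the SPARC probe lie below both vec values, and the TWIST2, ZEB1 and ZEB2 probes are open on all 4 arrays. Heights of different probes are not comparable.

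SNAI1, SNAI2 and TWIST1 were the transcription factors with a usable probe. The intensity of SNAI1 was 3522 and 2197 in vec against 2220 and 2655 in shpkp3-2. The groups overlapped, and the log2 fold change was 0.02 (SE 0.21, 95% interval -0.49 to 0.52, limma adjusted p = 0.983).

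SNAI2 had intensities of 136 and 53.0 in vec against 25.7 and 46.4 in shpkp3-2. Both shpkp3-2 values were the lower ones, but the arrays of each clone lay farther apart than the lower vec value and the higher shpkp3-2 value. The log2 fold change was -1.08 (SE 0.41, 95% interval -2.10 to -0.07), with a limma adjusted p of 0.383, and 0.0617 with the collection as a block (SE 0.32). The difference was -2.003 in the first collection and -0.16 in the second. The log2 fold change was -0.43 with normexp, -0.60 without vec replicate 1 and -0.65 without shpkp3-2 replicate 1. A second SNAI2 probe, assigned to U97060, was well above background on no array, with intensities between 2.06 and 5.12.

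TWIST1 had intensities of 145 and 87.6 in vec against 96.1 and 97.1 in shpkp3-2. After scaling the groups overlapped, with a log2 fold change of -0.01 (SE 0.20, 95% interval -0.49 to 0.47, limma adjusted p = 0.99). The second TWIST1 probe was well above background on no array.

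ZEB1, ZEB2 and TWIST2, each with 1 probe, had intensities between 1.84 and 2.28 on all 4 arrays. These values are not well above background, although a weaker flag of the software, positive and significant, was set for TWIST2 on 2 arrays. No order is read from them and no fold change is given.

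VIM had lower values in shpkp3-2 with both of its probes, past the threshold with the block but not without it. The brighter probe had intensities of 149 and 78.7 in vec against 38.6 and 40.6 in shpkp3-2. The other probe had 69.1 and 38.4 in vec against 17.1 and 21.9 in shpkp3-2. With either probe the clones did not overlap. The brighter probe gave a 2.36-fold lower level (log2 fold change -1.24, SE 0.23, 95% interval -1.81 to -0.67), with a limma adjusted p of 0.143, and 0.00822 with the collection as a block. Its SE was larger with the block (0.28), so the lower p did not come from a smaller SE. The other probe gave a log2 fold change of -1.20 (SE 0.24), with a limma adjusted p of 0.16, and 0.0123 with the block (SE 0.29). The difference for the brighter probe was -1.55 in the first collection and -0.93 in the second. VIM was the only one of the 7 genes at least 2-fold below the vec mean on each shpkp3-2 array, which held for 0.623% of all probes, and 0 of the 7 were at least 2-fold above it, against 1.12% of all probes. Leaving out 1 array gave limma adjusted p of 0.111 without vec replicate 1, 0.0326 without vec replicate 2, 0.4 without shpkp3-2 replicate 1 and 0.29 without shpkp3-2 replicate 2. In each of these fits the lone array of a clone is assumed to vary like the other clone, which alone gives the probe's own spread. With another background correction (normexp) the log2 fold change was -0.61 for the brighter probe and -0.28 for the other (limma adjusted p = 0.504), so the probes differed more in size there.

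SPARC had intensities of 64.0 and 58.2 in vec against 26.0 and 27.7 in shpkp3-2. The clones did not overlap, and both vec values were close to each other. The log2 fold change was -0.97 (SE 0.19, 95% interval -1.43 to -0.51), with a limma adjusted p of 0.149, and 0.0483 with the collection as a block. As for VIM, the SE was larger with the block (0.28). The difference was -0.90 in the first collection and -1.04 in the second. With normexp and its offset the log2 fold change was -0.23.

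Beside VIM and SPARC, the markers of fibroblasts, which also express both, were examined. COL1A2, COL3A1, DCN, LUM and PDGFRB were well above background on no array. The remaining 2 of 7 markers, COL1A1 and THY1, were detected on all 4, and neither passed the threshold. The summed intensity of the list before scaling was 1039 and 1349 in vec against 745 and 797 in shpkp3-2, and most of it was THY1 (837 and 1230 against 619 and 652). The log2 fold change of COL1A1 was 0.02, and the scaled difference of THY1 was -0.04 in the first collection and -0.89 in the second. The part of these transcripts in the VIM and SPARC differences was not tested.

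FN1 differed more between the arrays of 1 clone than between the means of the clones. Its brightest probe (GT_44k_24_P119745) had intensities of 244 and 89.2 in vec against 80.8 and 128 in shpkp3-2. The groups overlapped, and the log2 fold change was -0.33 (SE 0.40, 95% interval -1.32 to 0.66, limma adjusted p = 0.765). The second probe, assigned to the same transcript, had 23.9 and 8.50 in vec against 6.46 and 10.6 in shpkp3-2, and it was well above background on 1 array of each clone. The third was well above background on no array, with intensities between 2.34 and 7.34. The probe sequences printed above therefore differed in detection, and the brightest was the one tested.

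ESRP1 had intensities of 803 and 547 in vec against 517 and 530 in shpkp3-2. Its scaled values in shpkp3-2 were below both vec values by a small margin, with a log2 fold change of -0.13 (SE 0.18, 95% interval -0.56 to 0.31, limma adjusted p = 0.796). It was -0.0068 with normexp and -0.045 without vec replicate 1.

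**Figure D2:**
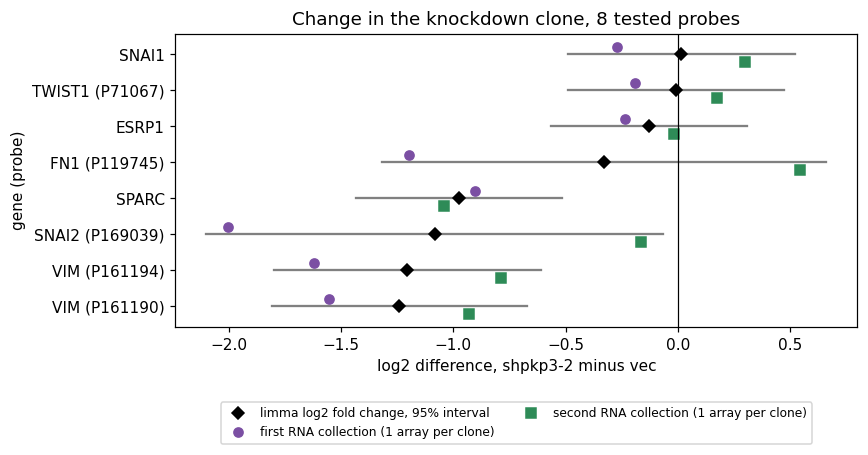
Log2 difference between shpkp3-2 and vec (horizontal axis) for the 8 tested probes of 7 genes, with diamonds for the limma estimate, lines for its 95% interval, and circles and squares for the difference within the first and second RNA collection (1 array per clone). The intervals of the VIM, SPARC and SNAI2 probes lie below 0, and the collections lie on opposite sides of 0 for SNAI1, TWIST1 and FN1.

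Other genes of the transition were counted in 4 lists, with 1 brightest probe per gene. Among 17 further transcription factors and partners, 13 were tested, 0 were called by limma in either direction (2 higher and 1 lower at an unadjusted p of 0.05), and 8 changes were positive and 5 negative, with a median log2 fold change of 0.05. Log2 fold changes were 0.64 for KLF8, 0.50 for TBX3 and -0.47 for SOX4, none of them past the threshold.

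Of 40 further mesenchymal markers, 25 were tested and 0 were called by limma in either direction, while 2 were at an unadjusted p of 0.05 higher and 2 lower. Of these tested genes, 12 changes were positive and 13 negative, with a median of -0.02. N-cadherin (CDH2), which replaces E-cadherin in mesenchymal cells, was one of 14 genes not well above background on any array. With the collection as a block, LOXL2, a lysyl oxidase, was called lower, and CNN1, a smooth muscle calponin, and TGFBI, a secreted matrix protein, were called higher, that is 1 and 2 of 25 genes, against 1.11% and 1.65% of all probes. LOXL2 had intensities of 3224 and 1864 in vec against 655 and 1205 in shpkp3-2 (log2 fold change -1.25, limma adjusted p = 0.249, and 0.0129 with the block). CNN1 had 51.0 and 20.9 in vec against 76.5 and 48.6 in shpkp3-2 (log2 fold change 1.11, limma adjusted p = 0.321, and 0.0184 with the block). TGFBI, named after its values were seen, had 11.7 and 6.999 in vec against 29.4 and 20.4 in shpkp3-2. It was well above background on 1 of the 2 vec arrays and entered the fit only through shpkp3-2, where it is higher, so its call with the block rests on a vec value at background. With normexp and its offset the log2 fold change of TGFBI was 0.46. The log2 fold change was -0.70 for S100A4, a calcium binding protein of motile cells, and 0.63 for PDGFRA, a growth factor receptor, neither past the threshold.

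Most of the epithelial genes had a positive change, and 1 of them passed the limma threshold. Of 46 genes, 44 were tested, 38 changes were positive and 6 negative, and the median log2 fold change was 0.34. Both shpkp3-2 values lay above both vec values for 32 genes, which held for 27.2% of all probes tested, and below for 2. At an unadjusted p of 0.05, 16 genes were higher and 1 was lower, against 7.35% and 4.98% of all probes. The 32 and the 16 genes include KRT7 and GRHL1, which were well above background on 1 vec array and entered the fit only through shpkp3-2. KRT7, a keratin of simple epithelia, was called higher by limma. It had intensities of 14.7 and 8.41 in vec, the second of them not well above background, against 109 and 126 in shpkp3-2 (fitted log2 fold change 3.61, limma adjusted p = 0.00511). The size of the change in KRT7 rests on a vec value at background, and it was 1.51 with normexp and its offset. The limma adjusted p was 0.0517 with no filter and 0.0657 with a weaker background flag, and KRT7 was not among the probes above background on all 4 arrays. With the block, 5 of the 44 genes were called higher, against 1.65% of all probes, namely KRT7, the tight junction genes CLDN3 and CLDN7, the transcription factor EHF and the membrane protease TMPRSS4. The log2 fold changes of the last 4 were 1.24, 0.98, 1.28 and 1.13, each with an adjusted p above the threshold without the block. E-cadherin (CDH1) had intensities of 4526 and 2631 in vec against 3850 and 4385 in shpkp3-2, a log2 fold change of 0.46 (SE 0.21, limma adjusted p = 0.456). EPCAM, an epithelial adhesion protein, had a log2 fold change of 0.23, and ESRP2, the paralog of ESRP1, of 0.46, neither past the threshold.

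Transcripts whose splicing depends on ESRP proteins gave 0 limma calls in either direction among 25 tested genes (2 higher, one of them GRHL1, and 0 lower at an unadjusted p of 0.05), with 15 positive and 10 negative changes and a median of 0.04. Among the genes well above background on all 4 arrays, CD44, a cell surface receptor, had the largest change (log2 fold change 0.69, limma adjusted p = 0.232). LAS1L (0.51), CTNND1 (-0.29) and BAIAP2 (-0.28) followed. GRHL1, not well above background on all 4, had a fitted log2 fold change of 0.87. These probes measure the level of a transcript and not its splicing.

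**Figure D3:**
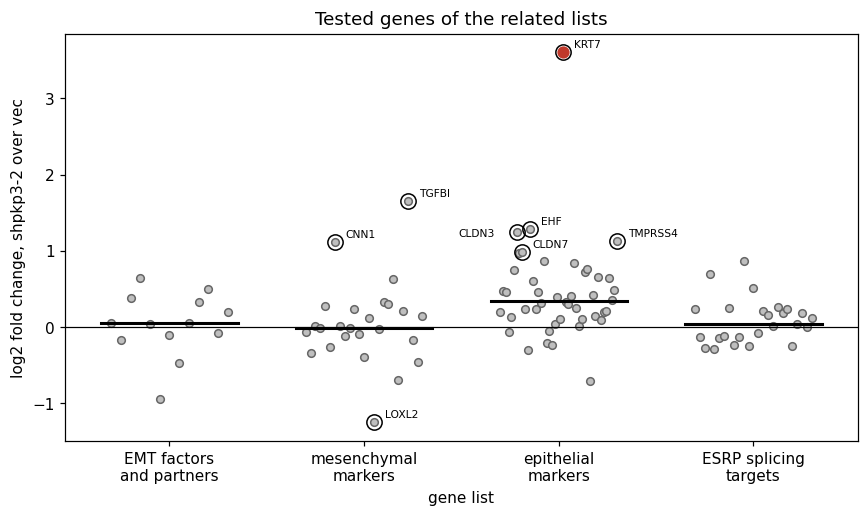
Log2 fold change of shpkp3-2 over vec (vertical axis) for each tested gene of the 4 lists, with bars for the list medians, a filled red point for the gene called by limma and circled points for genes called with the RNA collection as a block. The epithelial list has its median at 0.34, and the other 3 medians lie between -0.02 and 0.05.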

How the data were processed

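Cy3 labeled RNA was hybridized to 4 arrays, and the authors deposited what Agilent Feature Extraction wrote for each one (version 9.1 per the labels, 10.7.3.1 per the file headers). The deposited intensity is the processed signal, on a linear scale after detrending and background subtraction, with no normalization between arrays. The deposited flags are of another kind. A catalogue array is named in the methods, but the probes belong to a custom design.

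Processed signals were put on the log2 scale, and each array was scaled by subtracting its 75th percentile over 51538 non-control spots. Spots with an outlier flag (26 to 39 per array) were left out and spots of a probe averaged. A probe was well above background where every spot kept had the flag, a rule chosen after the number of tested probes was seen under others. The 30512 probes with that flag on each of the 2 arrays of vec, of shpkp3-2 or of both, out of 50117 with a value on all 4, entered a limma fit (limma 3.58.1, R 4.3.3; lmFit and eBayes), with no covariates and Benjamini-Hochberg adjustment over all of them. With 2 arrays against 2, an exact permutation test cannot go below p = 0.333. The fit was tested on simulated data, where it missed part of the changed probes, so a count of 0 does not show absence of change.

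Replicate numbers pair the samples because the series' design text ties each number to an RNA collection. Over the tested probes the deviations of same-numbered samples correlated at -0.20 (a description), so the pairing comes from the design text and not from these values. A fit with the collection as a block was made beside the unblocked one. There the shift that both clones share in a collection is taken out, and the p-values rest on what remains.

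Probes were named from RefSeq (GRCh38.p14), 28994 by accession, 2725 by symbol and 1129 by an older symbol, and 17390 had no match. The members and lists were chosen with earlier results of these data known. The rule for the genes named takes all members and their probes, PKP3, the 4 genes of each list with the largest change among those detected on all 4 arrays, every gene called by limma, and CDH1, EPCAM, CDH2 and ESRP2. Of the genes so named, 2 are not reported here. Alternatives were normexp with an offset of 50, quantile normalization, median centring, other filters, a floor of 5, a trended robust prior, mean of probes, and leaving out each array. Python 3.11.15, numpy 2.4.6, pandas 2.3.3 and matplotlib 3.10.9 were also used.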

Additional observations from a re-analysis of the deposited data

Results flagged for a closer look

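Among the 7 tested genes, 3 moved in opposite directions in the 2 RNA collections, each with 1 array per clone, and the difference between the collections was not tested. The log2 difference of shpkp3-2 from vec for FN1 was -1.20 in the first collection and 0.54 in the second. For SNAI1 it was -0.27 and 0.30, and for TWIST1 it was -0.19 and 0.18.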

How the results depend on the processing

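The alternatives for the list counts and for KRT7, CD68 and TGFBI were chosen after seeing the data. The list counts here take in the 11 hematopoietic and endothelial markers beside the 4 lists of the transition. VIM, SPARC, SNAI2 and ESRP1 kept a negative log2 fold change under every alternative tried, but its size moved, from -1.57 to -0.43 for SNAI2, from -0.21 to -0.0068 for ESRP1, from -1.51 to -0.61 for VIM and from -1.10 to -0.23 for SPARC, each smallest with normexp. With the replicate block, 503 probes were called higher and 338 lower, 2 of the 10 genes (VIM and SPARC) were called lower, and 8 list genes were called higher and 2 lower. With the collections crossed, a pairing chosen after seeing the data, the block called 64 probes higher and 40 lower, 0 of the 10 genes, and 1 list gene. The unblocked calls were 75 higher and 44 lower over all probes and 2 higher (KRT7 and CD68) and 0 lower in the lists. Calls higher and lower over all probes were 10 and 8 with no filter, 25 and 21 with probes above background on all 4 arrays, and 1 and 1 with the weaker flag, where the lists had 0 calls. Calls higher were 42 over all probes and 1 in the lists with quantile normalization, 114 and 4 with the trended prior, and 6 in the lists with normexp. Leaving out 1 array gave 79 to 400 probes higher and 54 to 202 lower, 0 to 1 of the 10 genes lower, and 1 to 3 list genes higher and 0 to 1 lower, with the largest counts of probes without vec replicate 2. Counts also moved over 1.5 times without vec replicate 1 (181 and 76) and, for lower, without shpkp3-2 replicate 2 (70). The 1 list call was without shpkp3-2 replicate 1. PKP3 kept its log2 fold change of -2.54 with no filter and with the weaker flag, with adjusted p of 0.135 and 0.145.

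The log2 fold change of SNAI1 was -0.029 with normexp, -0.059 with quantile normalization and -0.055 with median centring, and -0.13 to 0.16 without 1 array. That of TWIST1 was 0.029 with normexp and -0.18 to 0.16 without 1 array, and that of FN1 was -0.86 to 0.20. The cause was not tested. The median of all probes moved from 0.05 to -0.02 with median centring. Low signal over background limits VIM, SPARC, SNAI2, TWIST1 and FN1, and 3 of the 10 genes had no value well above background.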
